A study of Mus musculus with 22 samples.

Results

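Outer hair cell pulldown libraries of postnatal day 14 (P14) and postnatal day 8 (P8), 2 of each, hold the RNA that came down with tagged ribosomes after and before mice begin to hear. These 4 are among the 22 libraries of the study, and all 49671 mouse gene identifiers of the deposited tables belong to the comparison. The mice carried PrestinCreERT2/+;RiboTagHA/+, that is, a tamoxifen-activated Cre driven by the prestin gene (Slc26a5) and a ribosomal protein gene, Rpl22, to which Cre adds a haemagglutinin (HA) tag. Tamoxifen was given to both ages at 3 mg per 40 g of body weight, the dose for mice under 21 days. The P14 IP and P8 IP libraries (IP, immunoprecipitation with an HA antibody) are set beside P14 input and P8 input, 2 libraries each, which are RNA of the whole cochlea of mice of the same genotype with no pulldown. The design text calls the replicates independent, and no source used here says whether animals were pooled.

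Outer hair cells are the cochlear sensory cells that amplify sound by changing length, a motion driven by the membrane protein prestin. Their bundles of stereocilia touch the tectorial membrane, an extracellular gel of collagens and the glycoproteins alpha-tectorin, beta-tectorin and Ceacam16, which neighbouring cells of the epithelium secrete. In the second postnatal week of the mouse the efferent synapses of these cells mature, the tectorial membrane is completed and nerve fibres gain myelin, while fetal growth genes are turned down in many tissues.

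In the pulldown, the transcripts of Ceacam16 and of Slc4a11, a membrane transporter found in fibrocytes of the lateral wall, rose most on the scale used here, log2(scaled CPM + 1), which holds back genes near 0. The long noncoding RNAs Neat1 and Malat1 and the small nucleolar RNA host gene Snhg11 rose as well. The imprinted neighbours H19 and Igf2, the stereocilia gene Espnl and the beta-tectorin gene Tectb fell most. Of 20 genes used to recognise outer hair cells, 1 rose, 4 fell and 15 did not pass the test, where 7.8% of all genes tested were called.

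The H19 transcript carries the hairpin of miR-675 and Igf2 that of miR-483, and these small RNAs are shown because both hosts are among the 12 largest falls. Both hosts lie on the minus strand of chromosome 7 in GRCm38, H19 at 142575529 to 142578143 and Igf2 at 142650766 to 142666816. Mature sequences are from RefSeq (GRCm38.p6), and capitals mark the seed, bases 2 to 8 from the 5′ end, which pairs with target messages.
miR-675-5p: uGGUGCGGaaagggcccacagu
miR-675-3p: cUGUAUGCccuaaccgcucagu
miR-483-5p: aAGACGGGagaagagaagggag
miR-483-3p: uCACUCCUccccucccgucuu
These 4 small RNAs share no seed. The gene entry of Mir675 had 0 reads in all 22 libraries, and that of Mir483 had 30 reads in all, in 2 libraries. The libraries therefore speak of the host transcripts and not of the mature small RNAs.

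Promoter windows of Tectb and Espnl, the tectorial membrane gene and the stereocilia gene among the 4 largest falls, are shown as RefSeq gives them for GRCm38.p6. Each runs from 250 bases before the annotated start to 50 bases after it and is written 5′ to 3′ on the gene's own strand, which is the plus strand for both. The Tectb window is chr19:55180476-55180775 and the Espnl window is chr1:91321825-91322124.
Tectb promoter: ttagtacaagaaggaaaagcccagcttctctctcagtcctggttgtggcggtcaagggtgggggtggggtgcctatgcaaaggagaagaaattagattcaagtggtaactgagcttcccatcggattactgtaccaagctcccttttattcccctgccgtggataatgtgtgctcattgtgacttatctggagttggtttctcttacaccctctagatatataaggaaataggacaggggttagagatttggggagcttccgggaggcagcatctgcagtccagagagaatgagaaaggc
Espnl promoter: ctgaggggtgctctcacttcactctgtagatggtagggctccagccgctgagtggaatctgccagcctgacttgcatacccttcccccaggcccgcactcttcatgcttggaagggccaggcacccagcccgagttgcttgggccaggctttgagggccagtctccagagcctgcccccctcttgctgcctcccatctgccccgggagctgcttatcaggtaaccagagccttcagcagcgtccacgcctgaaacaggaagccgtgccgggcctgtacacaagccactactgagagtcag
Neither window holds the exact string TATAAA, a core of the TATA element, on either strand. Neither holds AGGTCA, a core element bound by several nuclear receptors, on either strand, so no letter is in capitals. Near forms, such as tatataag in the Tectb window, were not searched, so a TATA element of another form is not excluded. Among promoter windows of this length, TATAAA stood in 9.29% of those of genes that rose, in 7.88% of those of genes that fell and in 7.76% of those of all genes tested. AGGTCA stood in 13.57% of windows of genes that rose, in 10.3% of those of genes that fell and in 12.7% of those of all genes tested. The matched windows belonged to 673 of 1015 genes that rose, 295 of 447 that fell and 12277 of all genes tested.

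The libraries held 30757875 to 71023032 reads, of which 14978013 to 39907763 were counted to genes. P14 IP replicates 1 and 2 had 15281473 and 22748935 gene reads, and P8 IP replicates 1 and 2 had 30212757 and 26343102. Reads outside annotated genes took 30.5% and 37.9% of all reads in P14 IP, against 25.9% and 20.2% in P8 IP. P14 IP replicate 1 stood apart: 10810 genes reached 1 CPM (a gene's reads scaled to a common library total) in it, against 15203 in P14 IP replicate 2 and 15010 and 13836 in P8 IP. Its offset from P14 IP replicate 2 also depended on the level of a gene, with a median log2 difference of -0.98 for genes at a mean of 5 to 10 and 0.97 for genes above 300 on the scaled CPM used here. Log2 levels correlated across genes at r = 0.863 between the P14 IP replicates and 0.905 between those of P8 IP. P8 input replicate 2 and P28 IP replicate 2 also stood apart. Without these 2 libraries more genes passed the limma test in IP and fewer in input. The median log2 change over all genes in IP was then 0.04. Each result named below that rests on P14 IP replicate 1 is given with and without it.

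Values are scaled CPM, that is, CPM computed over gene reads and corrected by trimmed mean of M-values (TMM) factors, and fold changes are differences of log2(scaled CPM + 1), which understate the change of low genes. Of 18737 genes tested with limma, 1015 rose (5.42%) and 447 fell (2.39%) in P14 IP against P8 IP at a Benjamini-Hochberg adjusted p under 0.05, 7.8% in all. Counts of called members in the gene lists below are to be read beside these shares, since a few calls in a short list may lie near them. Both P14 libraries lay above both P8 libraries for 22.1% of all genes tested and below them for 17.9%. At least a 4-fold change on this scale was seen in 558 of those that rose and 244 of those that fell. Without P14 IP replicate 1, 362 genes rose (1.93%) and 192 fell (1.02%), 2.96% in all, and 375 of the 1462 calls were kept. The count of calls was 3708 without P14 IP replicate 2, 1110 without P8 IP replicate 1 and 421 without P8 IP replicate 2. A call is said below to hold throughout where it was made again, in the same direction, in each of the 4 fits that leave out 1 library, as happened for 188 rises (1%) and 45 falls (0.24%). In these fits the lone library of an age is assumed to vary like the other groups. A loss named below for 1 fit does not mean that the call held in the other fits. On recovered whole reads, edgeR called 1024 genes (5.47%) and DESeq2 2362 (12.6%). The median log2 change over all genes was 0.08, and it was -0.38 with CPM as deposited, where 160 genes rose and 202 fell. Protein-coding genes made up 842 of the rises and 372 of the falls.

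**Figure D1:**
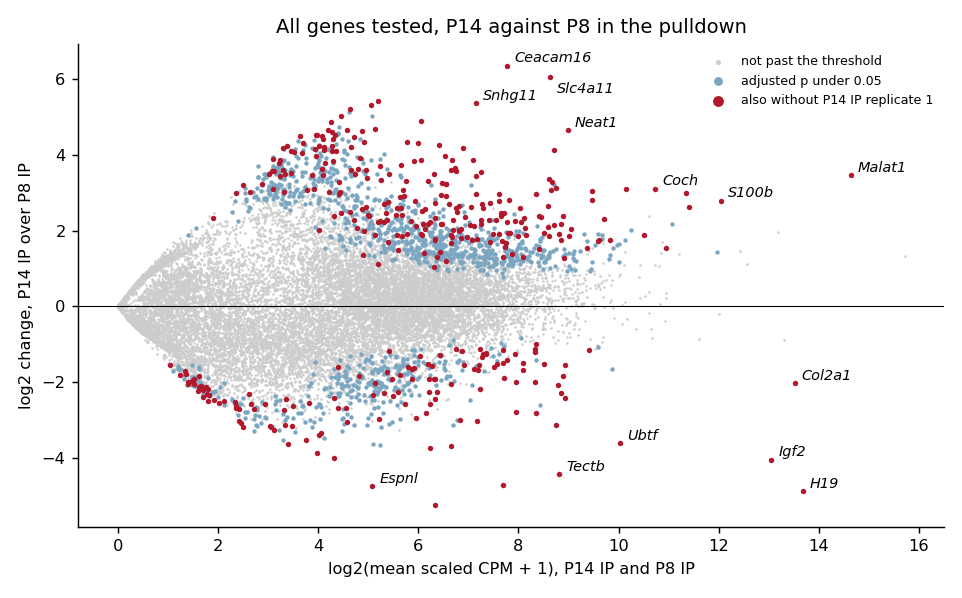
Log2 change, P14 IP over P8 IP (vertical axis), against the mean level as log2(scaled CPM + 1) (horizontal axis) for 18737 genes, each a point. Blue points pass an adjusted p of 0.05, red points also do so without P14 IP replicate 1. Ceacam16 and Slc4a11 lie highest among the labelled genes, and H19, Igf2, Espnl and Tectb lie lowest.

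Among the 12 genes that rose most, Ceacam16 (chromosome 7, 19852097 to 19861299, minus strand), whose product is a secreted glycoprotein of the tectorial membrane, had 437 and 424 scaled CPM in P14 IP, against 8.37 and 2.02 in P8 IP. The P14 and P8 libraries did not overlap, which was a condition for all genes counted among the 12 of either direction, and the means differed 82.8-fold. The fitted log2 change was 6.34 ± 0.42 (SE, n = 2 each, limma adjusted p = 9.3e-09), and 6.36 without P14 IP replicate 1. Here and below the SE rests on the spread pooled over all groups of libraries, not on the compared libraries alone. Slc4a11 (chromosome 2, 130684113 to 130697519, minus strand) had 977 and 585 scaled CPM in P14 IP, against 16.1 and 6.63 in P8 IP, again with no overlap. It rose by 6.05 ± 0.44 on the log2 scale (SE, limma adjusted p = 2.6e-08), and both calls held throughout. Both genes rose in the whole cochlea too: Ceacam16 had 1108 and 1167 in P14 input, against 3.62 and 10.9 in P8 input, and Slc4a11 had 1235 and 1349 in P14 input, against 5.77 and 22.9 in P8 input. Their levels were thus higher in input than in IP at P14 in all libraries. At later ages Ceacam16 stood at 224 to 262 in P28 IP, 118 to 171 in 6-week IP and 152 to 232 in 10-week IP, and Slc4a11 at 1228 to 1452, 706 to 1044 and 840 to 1336.

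Several genes of neuronal excitability and contact were low in P8 IP. Cacna1a, the pore subunit of P/Q-type calcium channels, had 84.4 and 42.8 scaled CPM in P14 IP, against 1.25 and 0.04 in P8 IP. Input held it at 14.8 and 16.8 at P14, against 6.20 and 5.52 at P8. The log2 change of Cacna1a was 5.32 ± 0.52 in IP (SE, limma adjusted p = 2.7e-06) and 1.29 in input (adjusted p = 0.29), and the difference between them had an adjusted p of 0.097. Csmd1, a large membrane protein with complement-control domains, had 111 and 30.5 in P14 IP, against 0.87 and 0.04 in P8 IP. Chd5, a chromatin remodeller of neurons, had 91.5 and 42.0 in P14 IP, against 2.74 and 0.60 in P8 IP. Cacng2, or stargazin, which accompanies AMPA-type glutamate receptors, had 141 and 63.8 in P14 IP, against 1.34 and 8.72 in P8 IP. The calls of all 4 of these genes held throughout.

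In 5 further members of the 12 the P14 replicates lay far apart. Adgrg2, an adhesion G protein-coupled receptor, had 94.5 and 16.7 scaled CPM in P14 IP, against 1.81 and 0 in P8 IP. S100a9, a calcium-binding protein of neutrophils, had 55.9 and 13.7 in P14 IP, against 0.17 and 0.14 in P8 IP, and 47.0 and 46.7 in P14 input, against 3.68 and 3.07 in P8 input. Slc10a6, a sulphated steroid carrier, had 76.1 and 17.3 in P14 IP, against 0.12 and 0.04 in P8 IP. Pcdhga6, 1 of the clustered protocadherins, whose transcripts share exons so that reads may be split among them, had 112 and 18.7 in P14 IP, against 1.08 and 0 in P8 IP. Tspan33, a tetraspanin, had 73.1 and 7.61 in P14 IP, against 0.09 and 0.04 in P8 IP. Slc10a6, Pcdhga6 and Tspan33 lost the call without P14 IP replicate 1, with limma adjusted p-values of 0.12, 0.17 and 0.057, and the calls of the other 9 of the 12 held throughout. Of the 12, 5 were called higher in input as well.

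**Figure D2:**
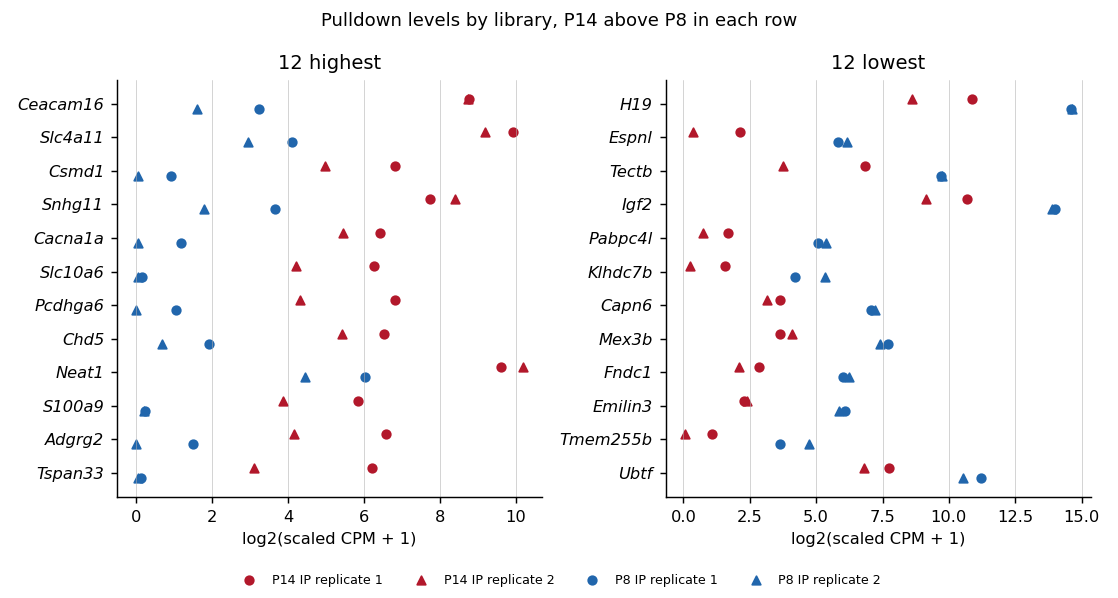
Levels as log2(scaled CPM + 1) (horizontal axes) of the 12 genes that rose most (left) and the 12 that fell most (right), 1 point per library, with P14 IP in red and P8 IP in blue and the replicates as circles and triangles. No P14 point overlaps the P8 points of its gene, as the choice of genes required; Tspan33, at 73.1 and 7.61 in P14 IP, shows how far the P14 replicates can lie apart.

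Among nuclear RNAs and host genes of small RNAs, Malat1, a nuclear RNA of splicing speckles on chromosome 19, had 61538 and 32150 scaled CPM in P14 IP, against 4067 and 4053 in P8 IP. That is a log2 change of 3.45 ± 0.54 (SE, limma adjusted p = 0.00043). In input it had 9068 and 5060 at P14, against 2510 and 8468 at P8, and there the 2 ages overlapped. Neat1, the scaffold of nuclear paraspeckles, had 772 and 1164 in P14 IP, against 64.2 and 21.0 in P8 IP. Snhg11, which the annotation used here lists as protein-coding, had 212 and 336 in P14 IP, against 11.5 and 2.45 in P8 IP. Neat1 and Snhg11 also rose in input, by 2.38 and 2.42 on the log2 scale. For Malat1, Neat1 and Snhg11 the calls in IP held throughout. Of 9 nuclear and untranslated RNAs tested, 6 rose, with a list median of 2.49 beside 0.08 for all genes, and 3 rose without P14 IP replicate 1. The summed level of this list was 64838 and 35425 in P14 IP, against 5166 and 4796 in P8 IP, beside shares of reads outside annotated genes of 30.5% and 37.9% in P14 IP, against 25.9% and 20.2% in P8 IP. Both measures were higher at P14. Within P14 the library with the higher sum, replicate 1, had the lower share. Abundant genes lay higher in replicate 1 than in replicate 2, as given above, so this order cannot be interpreted. The part of unspliced or nuclear RNA in the pulldown was not tested.

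H19 led the genes that fell. It had 1874 and 388 scaled CPM in P14 IP, against 24775 and 25265 in P8 IP, a 22.1-fold difference of means with no overlap. The log2 change of H19 was -4.87 ± 0.73 (SE, limma adjusted p = 0.0003), and -5.98 without P14 IP replicate 1. Input held 340 and 66.7 at P14, against 1082 and 792 at P8, so H19 was higher in IP than in input at both ages. Across ages its IP level ran from 24775 to 25265 at P8, 388 to 1874 at P14, 225 to 312 at P28, 112 to 124 at 6 weeks and 11 to 76.6 at 10 weeks. Igf2, the growth factor gene next to it, had 1626 and 563 in P14 IP, against 16326 and 15209 in P8 IP, and 448 and 195 in P14 input, against 1051 and 868 in P8 input. The log2 change of Igf2 was -4.04 ± 0.79 in IP (SE, limma adjusted p = 0.0032) and -1.69 in input (adjusted p = 0.4), and the falls of H19 and Igf2 in IP held throughout. For H19 and Igf2 the difference between the IP and input changes did not pass the test (limma adjusted p = 0.49 and 0.52).

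Of other genes of fetal growth, Hmga2, Igf2bp1 and Igf2bp3 were called lower, and none of these calls held throughout. The call of Hmga2 was lost in each of the 4 fits that leave out 1 library. That of Igf2bp3 was lost in 3 of them and that of Igf2bp1 in 2. Hmga2, a chromatin protein of embryonic cells, had 2.19 and 2.27 scaled CPM in P14 IP, against 29.9 and 22.3 in P8 IP. Igf2bp1 and Igf2bp3 encode RNA-binding proteins of Igf2 and other messages. Igf2bp1 had 1.97 and 7.23 in P14 IP, against 35.3 and 40.1 in P8 IP, and Igf2bp3 had 1.97 and 10.4 in P14 IP, against 34.0 and 40.0 in P8 IP. Of 18 imprinted and fetal growth genes tested, these 5 fell and 13 did not pass the test, with a list median of -0.43. Hmga2, Igf2bp1 and Igf2bp3 were also the 3 that fell among 20 let-7 targets and GW182 proteins of microRNA silencing, whose median was -0.059. Without P14 IP replicate 1, 2 of the 18, H19 and Igf2, were called. The limma adjusted p of Hmga2, Igf2bp1 and Igf2bp3 was then 0.16, 0.14 and 0.28, and without P8 IP replicate 2 it was 0.14, 0.073 and 0.13.

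Espnl, an espin-like actin-binding protein of stereocilia, had 3.40 and 0.30 scaled CPM in P14 IP, against 56.1 and 71.0 in P8 IP. The log2 change was -4.75 ± 0.74 (SE, limma adjusted p = 0.00045), and -5.66 without P14 IP replicate 1, and the call held throughout. In input it had 0.92 and 1.89 at P14, against 13.8 and 6.44 at P8. Fscn2, a fascin that crosslinks stereocilia actin, moved the other way, with 23.2 and 16.3 in P14 IP, against 1.75 and 0.07 in P8 IP (limma adjusted p = 0.011, and 0.073 without P14 IP replicate 1). Myo7a, the myosin motor of the bundle and a general hair cell marker, had 4.28 and 12.5 in P14 IP, against 36.9 and 34.0 in P8 IP (limma adjusted p = 0.034, and 0.26 without P14 IP replicate 1). Of 37 hair bundle genes tested, Fscn2 rose, Espnl and Myo7a fell, and 34 did not pass the test, where 7.8% of all genes tested were called. The list median was -0.33. Among 17 markers shared by hair cells, Myo7a and Gng8, a G protein subunit, fell and Atp2b2 rose, with a median of 0.029. Without P8 IP replicate 2 the limma adjusted p was 0.14 for Fscn2, 0.14 for Myo7a and 0.1 for Gng8.

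Tectb had 112 and 12.4 scaled CPM in P14 IP, against 829 and 851 in P8 IP. P14 replicates differed widely, and both lay below both P8 libraries. Beta-tectorin transcripts changed by -4.43 ± 0.72 on the log2 scale in IP (SE, limma adjusted p = 0.00067) and -4.82 in input (adjusted p = 0.00041), where it had 71.3 and 30.8 at P14, against 1669 and 1100 at P8. Tecta, the alpha-tectorin gene, had 6.58 and 2.42 in P14 IP, against 43.6 and 39.2 in P8 IP, and 1.37 and 0.28 in P14 input, against 121 and 90.8 in P8 input. Oc90, a protein of otoconia, had 9.32 and 2.76 in P14 IP, against 40.9 and 37.5 in P8 IP. Col2a1, the fibrillar collagen of cartilage and of the tectorial membrane, had 6853 and 2989 in P14 IP, against 16732 and 20219 in P8 IP. Of 13 tectorial and otolithic matrix genes tested, Tectb, Tecta, Oc90 and Col2a1 fell, Ceacam16 rose and 8 did not pass the test; the same 4 falls and 1 rise were counted without P14 IP replicate 1. The calls of Tectb, Col2a1 and Ceacam16 held throughout. That of Tecta was lost in 1 of the 4 fits that leave out 1 library, and that of Oc90 in 3. These proteins are secreted mainly by cells other than outer hair cells, and Tectb, Tecta, Col2a1 and Ceacam16 were called in input too.

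**Figure D3:**
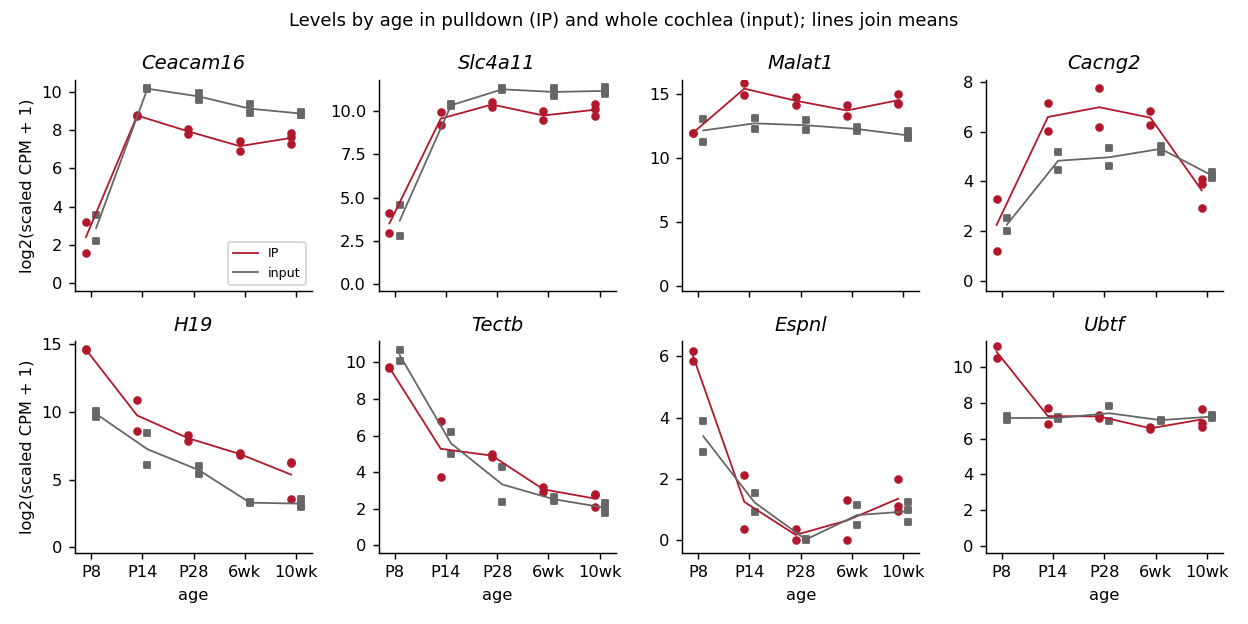
Levels as log2(scaled CPM + 1) (vertical axes) of 8 genes at P8, P14, P28, 6 weeks and 10 weeks (horizontal axes), with IP libraries as red circles, input libraries as grey squares and lines through the group means. Between P8 and P14 Ceacam16 and Slc4a11 climb in both fractions and H19 and Tectb decline in both, and the 2 P8 IP libraries, at 2376 and 1468 scaled CPM, are the highest for Ubtf.

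The wider matrix list followed the same side. Of 18 collagen and matrix genes tested, 5 fell, 1 rose and 12 did not pass the test, with a list median of -1.16. Without P14 IP replicate 1 there were again 5 falls and 1 rise, and 3 of the falls, those of Col3a1, Fn1 and Col4a2, were among the first 5. Col3a1, a fibrillar collagen of connective tissue, had 186 and 125 scaled CPM in P14 IP, against 791 and 844 in P8 IP. Fn1, or fibronectin, had 242 and 114 in P14 IP, against 667 and 750.1 in P8 IP. Col12a1 averaged 8.54 in P14 IP, against 75.3 in P8 IP, and Col18a1 13.1 in P14 IP, against 49.0 in P8 IP, and both lost the call without P14 IP replicate 1 (limma adjusted p = 0.22 and 0.24). Fn1 lost it in 3 of the 4 fits that leave out 1 library, and the fall of Col3a1 held throughout. Col27a1, a fibrillar collagen of cartilage, rose to 3922 and 2041 in P14 IP, against 1038 and 904 in P8 IP, and its call held throughout. Fndc1 and Emilin3, secreted proteins of the matrix, were among the 12 largest falls. Fndc1 had 6.14 and 3.24 in P14 IP, against 64.1 and 73.7 in P8 IP, and Emilin3 had 3.84 and 4.29 in P14 IP, against 66.8 and 57.5 in P8 IP. Without P14 IP replicate 1 their limma adjusted p-values were 0.058 and 0.065, and without P8 IP replicate 2 they were 0.12 and 0.067.

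Ubtf, the upstream binding factor that RNA polymerase I needs to transcribe ribosomal RNA genes (chromosome 11, 102304560 to 102319742, minus strand), behaved differently in the pulldown and in the whole cochlea. It had 212 and 109.9 scaled CPM in P14 IP, against 2376 and 1468 in P8 IP, while P14 input had 149 and 136 and P8 input had 151 and 132. Ubtf changed by -3.60 ± 0.36 on the log2 scale in IP (SE, limma adjusted p = 3.2e-06), which held throughout, and by 0.01 in input. The difference between these changes was -3.61 (limma adjusted p = 0.0067), and Ubtf was the 1 gene of 18737 (0.00534%) for which that difference passed the test. Leaving out 1 of the 8 libraries gave -3.14 to -3.98 for it, with an adjusted p over 0.05 in 1 case, without P14 input replicate 1 (limma adjusted p = 0.0503). At later ages Ubtf stood at 144 to 158 in P28 IP, 90.7 to 98.9 in 6-week IP and 99.9 to 203 in 10-week IP. Of all genes, 1798 had an unadjusted p under 0.05 for this difference, and edgeR called 2 (0.0107%) and DESeq2 355 (1.89%). The limma count was 973 without P14 IP replicate 2, 18 without P8 IP replicate 1, 15 without P8 input replicate 1, 2 without P14 input replicate 2 and 0 without P14 input replicate 1, so that the number of genes with unequal changes rests on single libraries.

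The remaining large falls were of genes with varied roles. Mex3b, an RNA-binding protein, had 11.5 and 16.1 scaled CPM in P14 IP, against 206 and 167 in P8 IP. Capn6, a calpain relative that binds microtubules, had 11.4 and 7.87 in P14 IP, against 132 and 146 in P8 IP. Pabpc4l, a relative of poly(A)-binding proteins, had 2.19 and 0.67 in P14 IP, against 32.2 and 40.2 in P8 IP. Klhdc7b, a kelch-domain protein, had 1.97 and 0.19 in P14 IP, against 17.3 and 39.6 in P8 IP. Each of these 4 calls was kept without P14 IP replicate 1. The fall of Mex3b held throughout, while without P8 IP replicate 2 the limma adjusted p of Capn6, Pabpc4l and Klhdc7b was 0.059, 0.074 and 0.13. Of the 12 largest falls, 1, that of Tectb, was also called in input.

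Outer hair cell markers checked the label of the pulldown. Slc26a5, the prestin gene that drives the Cre, had 3.29 and 6.23 scaled CPM in P14 IP, against 37.3 and 20.3 in P8 IP, and 5.02 and 5.81 in P14 input, against 4.70 and 5.06 in P8 input. Its IP libraries lay above the input libraries at P8 and overlapped them at P14, and its log2 change in IP of -2.36 did not pass the test (limma adjusted p = 0.2). Ocm, the calcium buffer oncomodulin, had 1041 and 451 in P14 IP, against 624 and 783 in P8 IP, and was at 195 and 122 in P14 input, against 144 and 133 in P8 input. Ikzf2, the transcription factor helios, had 152 and 123 in P14 IP, against 99.0 and 91.6 in P8 IP, and 21.1 and 8.03 in P14 input, against 15.8 and 28.7 in P8 input. Chrna10, a subunit of the efferent nicotinic receptor, had 33.2 and 14.7 in P14 IP, against 39.6 and 63.8 in P8 IP. Ocm, Ikzf2 and Chrna10 were thus above input in every IP library of both ages. Rpl22, the tagged gene, had 84.7 and 60.0 in P14 IP, against 67.1 and 84.3 in P8 IP.

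Of 20 outer hair cell markers tested, 1 rose, 4 fell and 15 did not pass the test, and without P14 IP replicate 1 there were 1 rise and 1 fall. Cacng2 rose, as given above. Among the falls, Strip2 had 9.54 and 15.1 scaled CPM in P14 IP, against 101 and 60.8 in P8 IP, and Rasd2, a small GTPase, had 2.52 and 14.4 in P14 IP, against 58.1 and 74.7 in P8 IP. Tmem255b, a membrane protein, had 1.10 and 0.04 in P14 IP, against 11.4 and 25.6 in P8 IP. The falls of Strip2 and Rasd2 lost the call without P14 IP replicate 1 (limma adjusted p = 0.1 and 0.35), and that of Tmem255b lost it without P8 IP replicate 2 (0.066). The rise of Cacng2 was the 1 call of the list that held throughout. The summed level of the 20 genes was 2580 and 1239 in P14 IP, against 1895 and 2066 in P8 IP, and the 2 ages overlapped. In bulk RNA, fewer cells of a type and less RNA per cell cannot be told apart.

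Genes of synapses and calcium handling moved in both directions. Kcnn2, the SK2 potassium channel of the efferent synapse, had 94.9 and 71.6 scaled CPM in P14 IP, against 26.2 and 8.15 in P8 IP (limma adjusted p = 0.0037). Cabp1, a calcium-binding regulator of calcium channels, had 81.0 and 21.1 in P14 IP, against 2.80 and 2.16 in P8 IP. Otof, or otoferlin, the vesicle protein that inner hair cells need for transmitter release, had 5.70 and 22.4 in P14 IP, against 63.0 and 40.6 in P8 IP (limma adjusted p = 0.022, and 0.28 without P14 IP replicate 1). The call of Cabp1 held throughout, and that of Kcnn2 was lost without P8 IP replicate 2 (limma adjusted p = 0.1). Of 19 genes of hair cell channels and synapses, 2 rose and 2 fell, and without P14 IP replicate 1 the 2 rises, of Kcnn2 and Cabp1, were called again. Of 20 calcium buffers and pumps, 5 rose and 15 did not pass the test, and 2 rose without P14 IP replicate 1. Among the 5, S100b and S100a1 are calcium-binding proteins also abundant in glia and supporting cells, and their calls held throughout. S100b had 9590 and 5155 in P14 IP, against 857 and 1204 in P8 IP, and S100a1 had 868 and 459 in P14 IP, against 94.8 and 106 in P8 IP. Atp2b2, the calcium pump of the bundle, had 367 and 154 in P14 IP, against 98.0 and 109.6 in P8 IP, and lost the call without P14 IP replicate 1 (limma adjusted p = 0.42).

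**Figure D4:**
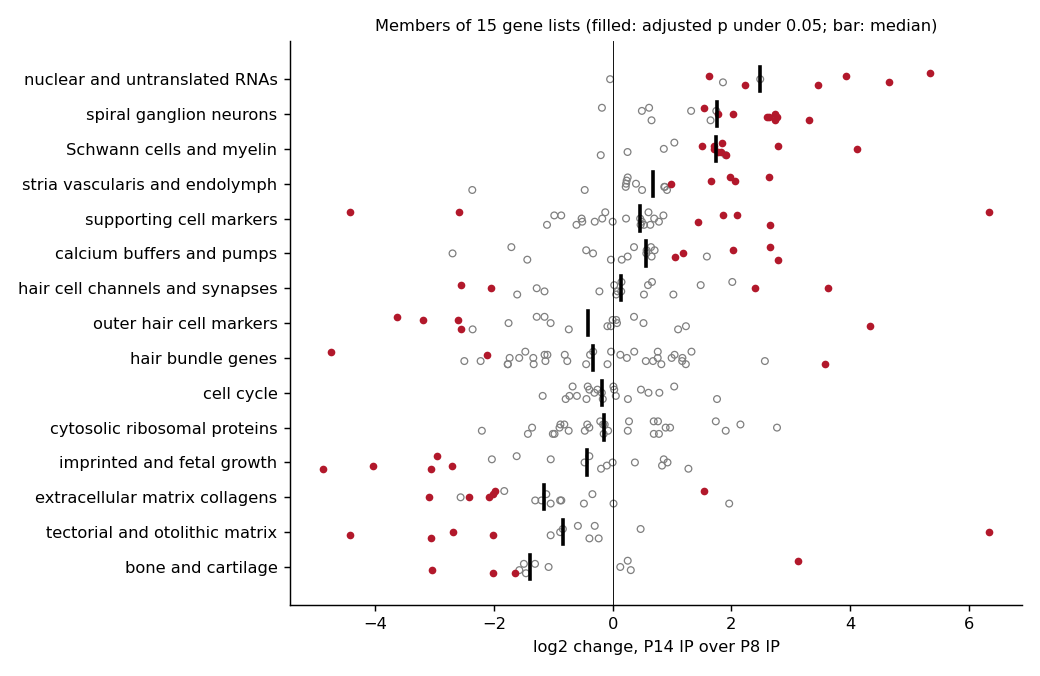
Log2 change, P14 IP over P8 IP (horizontal axis), of the members of 15 gene lists (rows), with filled points for members past an adjusted p of 0.05 and a black bar at the list's median. The medians of nuclear RNAs, spiral ganglion neurons and Schwann cells are 2.49, 1.76 and 1.74, and those of collagens and of bone and cartilage are -1.16 and -1.38.

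Lists of markers of cells in which the prestin-driven Cre is not meant to act gave different counts in the pulldown, with most rises among Schwann cell and neuron genes. Schwann cell and myelin genes passed the test in 9 of 14 cases, all rises, with a list median of 1.74, and 3 did so without P14 IP replicate 1. Mbp, the myelin basic protein, had 681 and 715 scaled CPM in P14 IP, against 135 and 255 in P8 IP. The list summed to 14638 and 7582 in P14 IP, against 1559 and 2378 in P8 IP, and to 24621 and 14518 in P14 input, against 3199 and 4036 in P8 input. Genes of spiral ganglion neurons rose in 9 of 16 cases, with a list median of 1.76, and 4 did so without P14 IP replicate 1. The neurofilament gene Nefl had 512 and 174 in P14 IP, against 28.7 and 64.1 in P8 IP, and Snap25, a protein of vesicle release, had 141 and 132 in P14 IP, against 11.2 and 34.2 in P8 IP. The neuron list summed to 3032 and 1433 in P14 IP, against 629 and 896 in P8 IP. The calls of Nefl and Snap25 held throughout, and that of Mbp was lost without P8 IP replicate 1 (limma adjusted p = 0.054). In input, 5 of the 14 Schwann cell genes and 8 of the 16 neuron genes rose over the same days. The part of these cells in the pulldown's other changes was not tested.

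Genes of the lateral wall moved in both directions. Coch, or cochlin, a secreted protein of fibrocytes, had 3632 and 2482 scaled CPM in P14 IP, against 345 and 352 in P8 IP, and 9950.1 and 9733 in P14 input, against 639 and 827 in P8 input. Otos, or otospiralin, also of fibrocytes, had 6292 and 3034 in P14 IP, against 415 and 720 in P8 IP. Both calls held throughout. Of 15 fibrocyte and mesenchyme genes, these 2 rose, 3 fell and 10 did not pass the test, and 2 rose and 4 fell without P14 IP replicate 1. The list had a median of -0.038, beside 0.08 for all genes, and summed to 16534 and 8929 in P14 IP, against 7757 and 9054 in P8 IP. Among 16 genes of the stria vascularis and endolymph, 5 rose and 11 did not pass the test. Slc26a4, or pendrin, an anion exchanger, had 265 and 191 in P14 IP, against 29.6 and 42.6 in P8 IP, and Dct, an enzyme of melanin synthesis, had 950.4 and 758 in P14 IP, against 189 and 219.9 in P8 IP; the calls of both held throughout, and the other 3 were lost without P14 IP replicate 1. The stria list summed to 6762 and 3772 in P14 IP, against 2296 and 2348 in P8 IP. Gjb6, the connexin of supporting cells, had 653 and 572 in P14 IP, against 159 and 176 in P8 IP, and was 1 of 5 that rose among 27 supporting cell markers, 3 of them without P14 IP replicate 1. Lfng, a modifier of Notch, and Tectb were the 2 that fell, and Lfng lost the call in each of the 4 fits that leave out 1 library. The list summed to 11516 and 6779 in P14 IP, against 6328 and 7007 in P8 IP.

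Blood and vessel markers were at lower levels. The defining endothelial markers moved in opposite directions, and neither was called. Pecam1 had 24.8 and 22.4 scaled CPM in P14 IP, against 10.9 and 16.1 in P8 IP. Cdh5 had 41.7 and 39.6 in P14 IP, against 56.7 and 110.5 in P8 IP. Endothelium and pericyte genes rose in 4 of 11 cases, Cldn5, a tight junction protein, among them at 158 and 80.9 scaled CPM in P14 IP, against 22.2 and 26.7 in P8 IP, and this last was the 1 call kept without P14 IP replicate 1. Lists of macrophages (10 genes), neutrophils and precursors (10) and erythroid cells (9) each had 1 member that rose, and of these the neutrophil gene S100a9 alone did so without P14 IP replicate 1. S100a8, another neutrophil marker, had 3.51 and 10.8 in P14 IP, against 0.26 and 4.11 in P8 IP, and the ages overlapped. Neutrophil genes summed to 67.3 and 41.1 in P14 IP, against 9.39 and 4.47 in P8 IP. Elane, a granule protease that marks their precursors, was at 0.22 and 0.11 in P14 IP and at 0 in both P8 IP libraries. These values rest on very few reads, since 1 read was worth 0.11 and 0.037 scaled CPM in P14 IP replicates 1 and 2. Of 12 bone and cartilage genes, 1 rose and 3 fell: Spp1, or osteopontin, had 1054 and 491 in P14 IP, against 85.6 and 78.0 in P8 IP, while Sp7, a transcription factor of osteoblasts, had 5.81 and 12.4 in P14 IP, against 77.5 and 77.3 in P8 IP. The rise of Spp1, which other cells of the cochlea also make, held throughout, and the fall of Sp7 was lost without P14 IP replicate 1 (limma adjusted p = 0.25). Inner hair cell markers split, with Calb2, or calretinin, at 367 and 134 in P14 IP, against 53.8 and 53.2 in P8 IP, Otof lower and 9 of 11 not past the test, and both calls were lost without P14 IP replicate 1 (limma adjusted p = 0.18 and 0.28).

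Thyroid hormone drives much of the final maturation of the cochlea, and 3 of 14 genes of its pathway passed the test. Ncor1, a corepressor of thyroid hormone receptors, had 1007 and 511 scaled CPM in P14 IP, against 156 and 159 in P8 IP. Its log2 change was 2.18 ± 0.31 in IP (SE, limma adjusted p = 0.00017) and 0.25 in input, with an adjusted p of 0.2 for the difference. Dio2, the deiodinase that makes active hormone, had 340 and 121 in P14 IP, against 737 and 705 in P8 IP, and fell in input too. The rise of Ncor1 held throughout, and the fall of Dio2 was lost in 3 of the 4 fits that leave out 1 library. Rxrb, a partner receptor, rose with P14 IP replicate 1 (limma adjusted p = 0.024) and not without it (0.26). Among 20 transcription factors of hair cells, Prox1, Nr2f2 and Zbtb20 rose and Zfp503 fell, and each lost the call without P14 IP replicate 1, with limma adjusted p-values of 0.18, 0.27, 0.092 and 0.084.

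Genes of general cell function were mostly not called. None of 29 cytosolic ribosomal protein genes passed the test in limma, with 4 higher and 4 lower at an unadjusted p under 0.05, edgeR called 0 and DESeq2 called 1 higher and 3 lower. For 21 cell cycle genes limma called 0, with 1 lower at an unadjusted p under 0.05, edgeR 0 and DESeq2 1. For 9 mitochondrially encoded messages limma, edgeR and DESeq2 called 0, with 1 higher at an unadjusted p under 0.05. Of 20 nuclear-encoded genes of oxidative phosphorylation, Cox5a and Cox4i1, subunits of cytochrome oxidase, rose, and lost the call without P14 IP replicate 1 (limma adjusted p = 0.21 and 0.22).

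Over the same days fewer genes were called in the whole cochlea in the fit of all 22 libraries. With each fraction fitted on its own libraries of all ages the order was the reverse, with 294 calls in IP and 1365 in input. With the compared libraries only, there were 121 in IP and 0 in input. The order thus depends on the libraries fitted. In P14 input against P8 input, limma called 272 genes higher (1.45%) and 54 lower (0.288%), 1.74% in all. The 326 calls were 104 without P14 input replicate 1, 148 without P8 input replicate 1 and 189 without P8 input replicate 2. Shared with the pulldown were 180 rises, 17.7% of those in IP and 66.2% of those in input, and 22 falls, 4.92% of those in IP and 40.7% of those in input. No limma call in IP had a call of the opposite direction in input. Ceacam16, Slc4a11 and Coch led the shared rises that are named here, with input changes of 7.26, 6.67 and 3.76, and Tecta and Tectb the shared falls, at -5.93 and -4.82. A gene called in IP and not in input was not thereby shown to differ between them, since the difference passed the test for Ubtf alone.

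**Figure D5:**
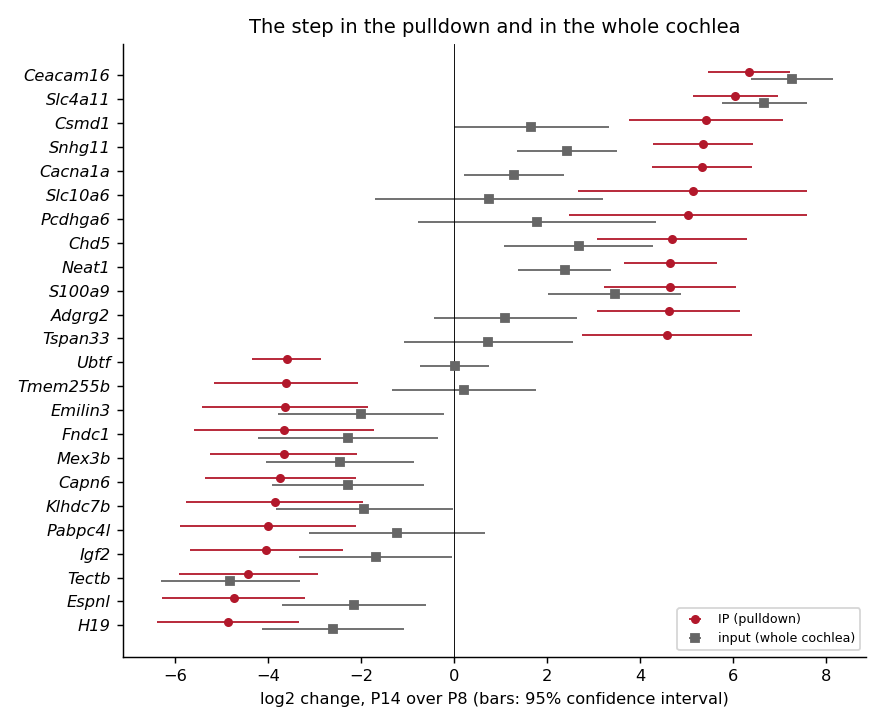
Log2 change, P14 over P8 (horizontal axis), in IP (red circles) and in input (grey squares) for the 24 genes that rose or fell most in IP (rows), with bars for the 95% confidence interval of each limma estimate. For Ceacam16, Slc4a11 and Tectb the intervals of IP and input overlap; for Ubtf, at -3.60 in IP and 0.01 in input, they are apart.

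Some rows near these genes need care. Gm27786 and Gm27483, annotated RNAs inside H19 on the opposite strand, cannot be told apart from H19 here because the strand setting of the counting is not given in the sources used here. The same holds for other overlapping or antisense genes.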

How the data were processed

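Cochlear RNA of 22 libraries, 11 IP and 11 input, was measured at 5 ages with a directional library kit, per the labels' protocols. TopHat, with no version, and the GRCm38 build come from the submitters' processing notes. The counting tool and its strand setting were not given in the sources used here. The authors deposited CPM per gene, relative to all reads of a library, as the column totals show, with 5 entries that name no gene. Those entries were left out of all tests and held 32.9% to 72.3% of the reads of a library. Values were whole multiples of 1 read (tolerance 0.01 reads, 100% of values), so whole reads were recovered.

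Gene reads were scaled by TMM factors (edgeR 4.0.16), genes reaching a deposited CPM of 1 in 2 or more libraries were kept, and limma 3.58.1 (R 4.3.3) fitted log2(scaled CPM + 1) with 1 mean for each of 10 groups, a trended prior and 12 residual degrees of freedom. A single read was worth a deposited CPM of 0.031 in P14 IP replicate 1, 0.0223 in P14 IP replicate 2, 0.0202 in P8 IP replicate 1 and 0.0246 in P8 IP replicate 2. On the scaled CPM used for levels it was worth 0.110, 0.0373, 0.0292 and 0.0354 in the same order. The TMM factor of P14 IP replicate 1 was 0.597, and the worth of 1 read limits the precision of low values, most of all in that library. Contrasts were P14 IP against P8 IP, P14 input against P8 input, and their difference. P-values and SE rest on the spread within groups, pooled over the 10 groups of both fractions, and not on the compared libraries alone. The design text calls the samples independent. With IP libraries of all ages only, 291 of the 1462 calls in IP were kept.

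Genes named are the 12 largest called changes each way (the higher group averaging 5 scaled CPM or more, libraries not overlapping, no predicted gene or pseudogene). They also include up to 4 called examples of each of 27 gene lists (428 entries, 409 tested), called genes of the difference and some defining markers of cell types. Defining markers not described above include Bglap, Slc17a8, Otoa, Kcne1, Csf1r and Hbb-bs, for which the P14 IP and P8 IP libraries overlapped. Gjb2, Ibsp, Tubb3, C1qa and Hba-a1, for which they did not overlap, were not described either. Others named from the lists, such as Col27a1, were chosen after their values were seen. Members and lists were chosen with earlier results of these data known. Of 49671 identifiers, 49326 matched a symbol in the GENCODE M21 annotation, which gives the coordinates. IP replicate numbers are shared by mice of different ages, so the number does not pair them. Deviations of P14 IP replicate 1 and P8 IP replicate 1 from their means correlated at r = -0.065. That value cannot decide on pairing, since IP and input with a shared sample name correlated as weakly as 0.0403. IP and input of 1 number share a sample name in the file headers, and their deviations correlated at r = 0.0403 to 0.304. The contrast of IP with input treats them as unpaired, and with that shared sample as a block Ubtf kept its call (-3.61, limma adjusted p = 0.0275). Alternatives were other scalings, quantile and cyclic loess normalization (the last chosen after the data were seen), a pseudocount of 0.25, no filter, subsets of libraries, a replicate block, edgeR and DESeq2 1.42.0. Promoters and small RNAs were read with Python 3.11.15. For the third age the sample labels (P28) were used, although the design text has P21.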

Additional observations from a re-analysis of the deposited data

Results flagged for a closer look

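The change of Ubtf from P8 to P14 differed between the pulldown and the whole cochlea by -3.61 on the log2 scale, being -3.60 in IP and 0.01 in input, and this difference was tested with limma (adjusted p = 0.0067).

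Reads outside annotated genes, which enter no comparison above, averaged 34.2% of all reads in P14 IP and 23.0% in P8 IP, against 12.3% in P14 input and 17.6% in P8 input. What these reads are was not tested.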

How the results depend on the processing

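The count of 1462 calls in IP was 362 with CPM as deposited and 491 with CPM over gene reads and no TMM factor. It was 121 with only the 4 IP libraries of P14 and P8, 294 with IP libraries of all ages and 2362 with DESeq2. It ran from 421 to 3708 when 1 library was left out. With CPM as deposited 160 genes were higher and 202 lower, and with quantile normalization 802 were higher and 565 lower. The replicate block gave 1275 calls in IP (916 higher and 359 lower), 275 in input and 1 for the difference, and the shared number does not pair the IP samples across ages. Cyclic loess, chosen after seeing the data, gave 1426. The input count of 326 was 0 with the compared libraries only, 1365 with input libraries only and 808 with DESeq2, and 104 to 269 with 1 library left out. The difference, 1 gene, was 2 with a pseudocount of 0.25, 20 with no filter, 2 with edgeR, 355 with DESeq2, 2 with cyclic loess and 0 to 973 with 1 library left out. The causes were not tested.

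Of 87 genes named as always listed, as largest changes or as list examples, 84 kept the sign of their IP change under every alternative run. Nearly all of these were chosen because they were called in these data, which favours a kept sign. Markers named whether called or not, such as Chrna10 and Elane, were outside this count. The exceptions, none of them called, were Ikzf2, at -0.23 with CPM as deposited, Ocm, at 0.084 with edgeR and -0.60 to 0.57 with 1 library left out, and Rpl22, at -0.30 to 0.17 with 1 library left out. With 2 libraries a group and 15281473 gene reads in P14 IP replicate 1, low genes are measured least well.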
